A study of Mus musculus with 7 samples.

Results

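Transcripts named for 30 genes were low or absent in every Setd1b WT oocyte and higher in every Setd1b cKO oocyte. The genes were selected on the deposited levels themselves. A transcript qualified if it lay on the strand of the gene it is named for, if that name was not a placeholder (Gm and a number, or ending in Rik), and if its level was under 1 RPM in each of 3 WT libraries and at least 1.5 RPM in each of 4 cKO libraries. RPM, the unit of all levels given here, is the number of reads on a transcript per 1000000 reads mapped in that library. The rule took 30 genes from 12050 named genes, in a table of 33437 transcripts of which 12910 met the conditions on name and strand. Because the contrast between the genotypes chose these genes, the differences given below describe the selection, and a fit on the same values is no independent evidence for them.

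The oocytes were at the germinal vesicle (GV) stage, grown to full size but arrested before meiotic maturation, and came from 21-day-old C57BL6 females (C57BL/6OlaHsd in the study's methods). All females were Setd1b floxed/floxed. The 4 Setd1b cKO oocytes came from females positive for Gdf9-Cre, a recombinase under an oocyte promoter that acts once follicles begin to grow, and the 3 Setd1b WT oocytes came from females without it by the labels, although the breeding described in the study's methods also yields WT females with Cre and 1 intact allele. Each library was made from 1 oocyte, the labels do not tell which oocytes shared a mother, and the spread given here is therefore that between single oocytes.

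SETD1B is a histone methyltransferase that places methyl groups on lysine 4 of histone H3 (H3K4), a mark found at the promoters of active genes. It acts in a complex with CXXC1, a protein that binds unmethylated CpG dinucleotides. A growing oocyte transcribes a large store of RNA and then becomes transcriptionally quiet at the GV stage, so that the RNA of a GV oocyte records the transcription of the growth phase.

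The libraries held between 8582493 and 12972366 mapped reads, and 1 read was worth between 0.0771 and 0.117 RPM. A level of 1.5 RPM therefore stood for 12.9 to 18.2 reads in the cKO libraries, and the absence of any read allowed a level of up to 0.231 to 0.350 RPM, by counting error alone. Reads outside the measured transcripts made up 13.2% to 16.4% of the cKO libraries and 9.57% to 9.90% of the WT libraries. The part of this difference in the levels below was not tested. Setd1b itself ranged from 2.68 to 16.7 RPM in the cKO libraries and from 8.61 to 17.7 RPM in the WT libraries. The genotypes overlapped, so this transcript gave no check of the labels.

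Oocyte markers were abundant in both genotypes, while the listed markers of other ovarian cells ranged from no read (Lum) to a cKO mean of 796 RPM (Vwf). The summed level of 11 oocyte genes, among them Gdf9, Zp2 and Zp3, was between 8939 and 14882 RPM in the cKO libraries and between 12814 and 19015 RPM in the WT libraries (two-sided exact permutation test, p = 0.171), and the mean of each of the 11 genes was lower in cKO. Granulosa and cumulus markers summed to 365 to 422 RPM in the cKO and 376 to 389 RPM in the WT libraries (exact p = 0.457), with Amh and Foxl2 at 0.174 RPM or less everywhere and 6 of 14 genes under 1 RPM in all libraries. Bmpr1b (224 RPM in cKO and 173 RPM in WT in the mean), Esr2 (86.8 and 148 RPM), Nr5a2 (38.8 and 27.8 RPM) and Cyp19a1 (26.6 and 22.8 RPM) made up most of that sum. The cKO mean was the higher one for 12 of the 14 genes, among them Inha (8.07 and 1.71 RPM), Fst (0.356 and 0 RPM) and Hsd17b1 (1.10 and 0.224 RPM), and the lower one for Esr2 and Kitl. Higher in every cKO library than in any WT library were the sums for theca and stroma (7.42 to 8.65 against 2.62 to 3.74 RPM), for endothelium (676 to 1029 against 511 to 634 RPM) and for blood and immune cells (5.14 to 13.3 against 2.47 to 4.77 RPM). Each of these 3 differences had an exact permutation p of 0.0571, adjusted over the 4 lists of other cell types to 0.0762, and 0.0571 is the smallest p that 4 against 3 libraries allow. Single genes carried these sums, namely Dcn (6.47 against 1.87 RPM in the mean), Vwf (796 against 541 RPM, beside Pecam1 at 11.9 against 17.3 RPM) and Cd68 (8.91 against 2.72 RPM), while 7 of 10 theca and stroma genes were under 1 RPM in all libraries, and Lum, Lyz2, Tyrobp and Hba-a1 had no read in any. By gene, the cKO mean was higher for 4 and lower for 5 of the 10 theca and stroma genes. For endothelium it was higher for 4 and lower for 1 of 5 genes. Among the 7 blood and immune genes it was higher for 1 and lower for 2. The part of these sums in the gain of the 30 genes was not tested.

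Taken as a group, the 30 genes were expressed at low levels even in the cKO oocytes. Their mean over the cKO libraries ranged from 1.66 RPM for Atp8b1 to 10.6 RPM for Rbms1, with a median of 2.83 RPM, and 17 genes stayed under 3 RPM. Their WT means lay between 0 and 0.825 RPM, with a median of 0.468 RPM. No gene had more than 12 reads in a WT library, and each had between 13 and 202 reads in a cKO library. Only 3 genes had no more than 3 reads in every WT library, so most were low in WT and not absent. The ratio of the cKO mean to the WT mean ran from 3.08 to 37.3, with a median of 6.27, over the 27 genes with more than 3 WT reads in all.

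**Figure D1:**
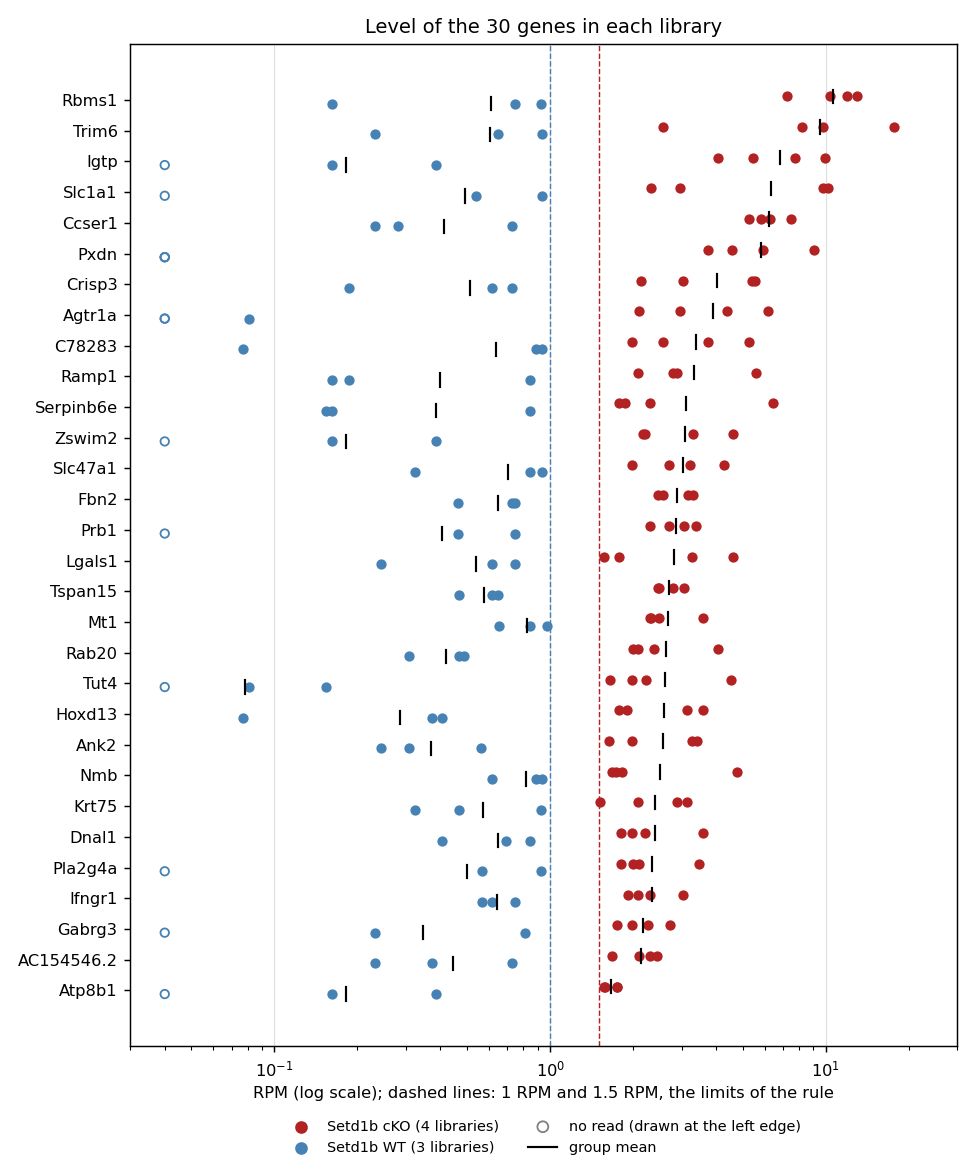
Level of each of the 30 genes in every library, in RPM on a log axis, with 4 Setd1b cKO libraries in red, 3 Setd1b WT libraries in blue and the group means as black bars. Open circles at the left edge stand for no read, and the dashed lines at 1 and 1.5 RPM are the limits that chose the genes, so the gap between the colours is fixed by the choice.

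All 30 genes were among the 18179 transcripts on which limma compared the genotypes, those that reached 1 RPM in 3 or more libraries. Of these transcripts, 683 (3.76%) rose and 355 (1.95%) fell in Setd1b cKO, by the threshold of more than 2-fold and an adjusted p under 0.05. With the libraries centred on their median gene the balance turned, to 458 higher and 531 lower, and the median log2 fold change of all transcripts tested went from 0.12 to -0.03. By this fit 22 of the 30 genes were higher, and 8 were not past the threshold, namely Dnal1, Ifngr1, Krt75, Lgals1, Mt1, Nmb, Pla2g4a and Serpinb6e. Their log2 fold changes on the log2(RPM + 1) scale ran from 0.87 to 2.86, with a median of 1.38 beside 0.12 over all transcripts tested. Every cKO library lay above every WT library in 2399 of the transcripts tested (13.2%), a separation that the rule requires of all 30. Since the same libraries chose the genes, none of these counts bears on the genes further.

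The same limits applied in the opposite direction took fewer genes. Named genes under 1 RPM in every cKO library and at least 1.5 RPM in every WT library numbered 6 (Ttc34, Itga10, Ddx60, Aste1, Clcn4 and Zbtb7c). The cKO group has 1 library more, so the limits are not equally hard in both directions. With each cKO library left out in turn, 3 libraries faced 3, and the limits took 38, 37, 36 and 53 genes gained against 9, 9, 9 and 12 genes lost, from replicate 1 left out to replicate 4 left out. The highest count came without cKO replicate 4, the library with the fewest reads. In the whole table each cKO library had more transcripts at 1 RPM or more (17267 to 18196) than any WT library (16484 to 16819). The part of this difference in the counts of genes gained and lost was not tested.

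**Figure D2:**
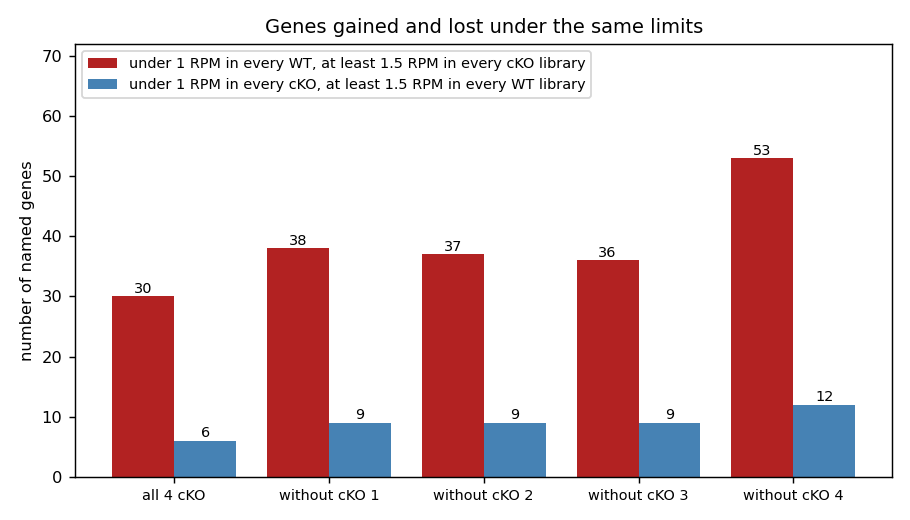
Number of named genes that met the limits in each direction, with all 4 cKO libraries and with each left out in turn, red for genes silent in WT and blue for genes silent in cKO. The red bars stand at 30 to 53 genes and the blue bars at 6 to 12 genes.

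The gain was not limited to transcripts named for a gene on their own strand. Among the transcripts under 1 RPM in every WT library, 30 of 3539 (0.848%) met the cKO limit in the named class, 20 of 2936 (0.681%) among transcripts whose named gene lies on the opposite strand, 28 of 6529 (0.429%) among those with no gene, and 11 of 1660 (0.663%) among those with a placeholder name. In the opposite direction the shares were 0.202%, 0.234%, 0.0852% and 0.282%. Most WT-silent transcripts stayed under the cKO limit, which does not mean that they had no reads. Of the 3539 named transcripts silent in WT, 3106 were under 1.5 RPM in every cKO library, 261 reached it in 1, 98 in 2, 44 in 3 and 30 in all 4.

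**Figure D3:**
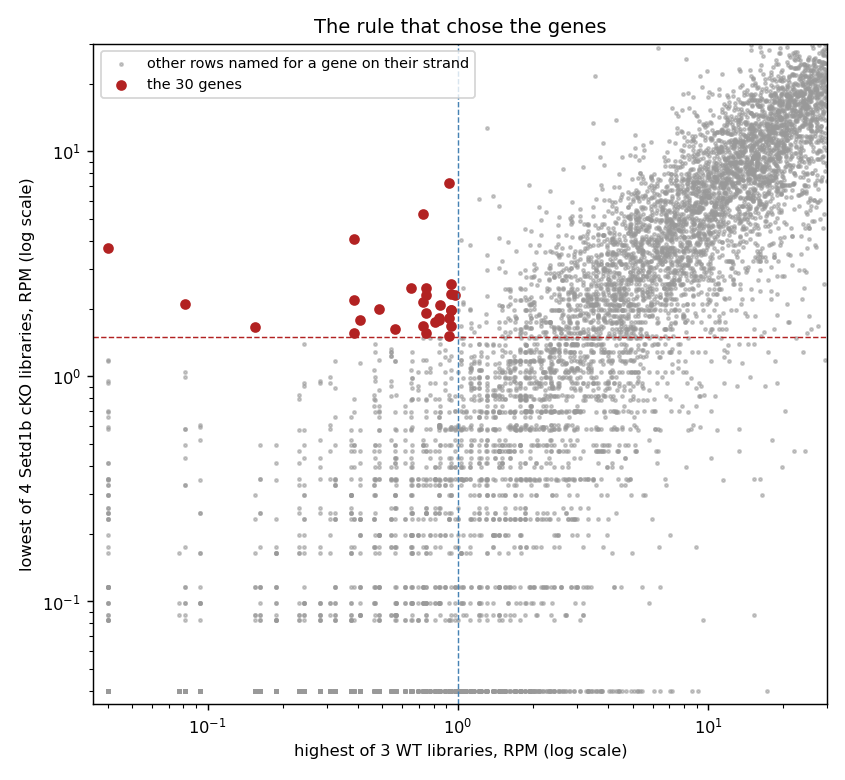
Each point is a transcript named for a gene on its strand, placed by its highest level in 3 WT libraries (horizontal) and its lowest level in 4 Setd1b cKO libraries (vertical), both in RPM on log axes, with values without a read drawn at the left or lower edge. The 30 genes in red fill the upper left corner that the dashed limits of 1 and 1.5 RPM cut out, and other transcripts lie just across both limits.

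Several transcripts missed the limits narrowly. Mblac2 and Zfp74 fell short with a lowest cKO level of 1.48 RPM, and Ap4b1 and Irak2 with highest WT levels of 1.002 and 1.03 RPM. Just inside were Krt75 and Lgals1, with lowest cKO levels of 1.51 and 1.56 RPM, and Mt1 and Trim6, with highest WT levels of 0.972 and 0.936 RPM.

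The genes lay on 17 chromosomes, and GENCODE gives 28 as protein-coding. The transcript began within 250 bases of an annotated start of the gene in 24 cases and farther away in 6, namely Ccser1, Gabrg3, Prb1, AC154546.2, Krt75 and C78283. In 24 cases it shared at least 0.5 of the joint span with the named gene. The other 6 names, Igtp, Ccser1, C78283, Prb1, Gabrg3 and AC154546.2, are less certain. For Ccser1 and Gabrg3 another transcript of the same name and strand was present in both genotypes, so that these genes were silent in WT for the selected transcript only. The study's methods describe no step that keeps the strand of the RNA, and the use of strand in the count is not stated. Transcripts that overlap another, also one on the opposite strand, could therefore share reads with it.

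Genes of the interferon response were among the set. Igtp (ENSMUSG00000078853) encodes an immunity-related GTPase, a class of proteins that act against intracellular parasites and are induced by interferon gamma in immune and many other cells. Its transcript (GRCm38 chr11:58199556-58222771, plus strand) had 5.44, 7.74, 9.93 and 4.08 RPM in the cKO libraries, from replicate 1 to replicate 4, and 0.162, 0.385 and 0 RPM in the WT libraries. The lowest cKO library lay far above the highest WT library, and the means of 6.80 ± 2.58 (SD, n = 4) and 0.182 ± 0.194 RPM (SD, n = 3) differed 37.3-fold. The WT mean rests on 7 reads, and the ratio ran from 24.8 without WT replicate 3 to 83.9 without WT replicate 2. The transcript spans both Igtp and the neighbouring Irgm2, a gene of the same class, and matches the Irgm2 span better (0.997 of the joint span against 0.346), so its reads cannot be assigned to either gene alone.

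The sequence before the annotated Igtp start is shown because interferon-induced genes often carry a pair of known motifs there. RefSeq promoters (GRCm38.p6, 250 bases before the start, on the strand of the gene) were searched on both strands for GAAANNGAA, the core of an interferon-stimulated response element, and for TTCNNNGAA, the gamma-activated site. Of 32817 promoters, 7.12% held the first and 7.01% the second. The Igtp window (chr11:58199306-58199555) held both, in capitals in the line that follows, and they do not overlap.
Igtp: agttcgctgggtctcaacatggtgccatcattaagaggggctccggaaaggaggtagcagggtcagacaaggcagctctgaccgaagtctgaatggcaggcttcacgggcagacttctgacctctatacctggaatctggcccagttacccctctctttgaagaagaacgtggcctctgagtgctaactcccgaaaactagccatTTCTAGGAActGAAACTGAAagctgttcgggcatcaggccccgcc
The windows of Ifngr1 and Trim6 held neither motif. Of the 18 members with a RefSeq window, Rab20 was the other one with the first motif and Zswim2 the other one with the second. A match to these letters is a description of the sequence and does not show binding.

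Ifngr1 (ENSMUSG00000020009), the ligand-binding chain of the interferon gamma receptor, is expressed widely, and its transcript had 2.08, 2.31, 1.92 and 3.03 RPM in the cKO and 0.567, 0.617 and 0.748 RPM in the WT libraries. The cKO libraries were close to each other, and all lay above the WT libraries. A transcript on the opposite strand overlaps 3696 bases of Ifngr1, at 0.495 to 1.22 RPM in cKO and without a read in WT, and its part in the level of Ifngr1 was not tested. Trim6 (ENSMUSG00000072244, chr7:104218779-104235152), a ubiquitin ligase of the tripartite motif family with a role in innate immune signalling, had 8.21, 9.80, 17.6 and 2.56 RPM in the cKO and 0.648, 0.231 and 0.936 RPM in the WT libraries. Its level varied 6.86-fold among the cKO oocytes, the widest range in the set.

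Few other genes of the interferon response were examined. The GTPases and effectors Irgm1, Iigp1 and Gbp2, had no read in any of the 7 libraries. Among signalling genes, Jak1 averaged 112 RPM in cKO and 92.2 RPM in WT, Jak2 90.9 and 103 RPM, and Irf1 98.1 and 135 RPM, and these 3 did not pass the limma threshold. The second receptor chain, Ifngr2, averaged 0.409 ± 0.524 RPM (SD, n = 4) in cKO and 0.157 ± 0.154 RPM (SD, n = 3) in WT, below the filter of the test.

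Receptors and signalling peptides formed another group. Agtr1a (ENSMUSG00000049115, chr13:30336441-30382867), the main angiotensin II receptor of the mouse, acts in vessels, kidney and adrenal gland. Its levels were 2.97, 4.36, 6.18 and 2.10 RPM in the cKO libraries and 0.0810, 0 and 0 RPM in the WT libraries. This stands for 172 reads in cKO and 1 read in WT, a ratio of 146 with a 95% interval of 25.9 to 5815 for counting error only. Agt, the precursor of angiotensin II and mainly a product of the liver, was no member since WT replicate 1 exceeded the limit, with 1.21 RPM. Agt averaged 9.39 ± 3.69 RPM (SD, n = 4) in cKO and 0.735 ± 0.433 RPM (SD, n = 3) in WT, and limma placed it among the higher genes (log2 fold change 2.54 ± 0.35 SE, adjusted p = 0.00417). Under 14 other settings its adjusted p ran from 0.00318 to 0.0286 and it stayed past the threshold. The receptor of the same class, Agtr1b, averaged 0.442 and 0.189 RPM.

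Ramp1 (ENSMUSG00000034353, chr1:91179822-91225196) encodes a small membrane protein that joins the calcitonin receptor-like receptor, CALCRL, to form the receptor for calcitonin gene-related peptide in vessels and neurons. It had 2.08, 2.88, 2.79 and 5.59 RPM in the cKO and 0.162, 0.848 and 0.187 RPM in the WT libraries. Replicate 4 was the highest cKO library, and the other 3 lay close together. Calcrl had no read in any library. Ramp2, the relative that forms a receptor for adrenomedullin, was abundant without a difference past the threshold, at 88.4 ± 11.4 RPM (SD, n = 4) and 89.0 ± 4.18 RPM (SD, n = 3).

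Nmb, the gene of the bombesin-like peptide neuromedin B, had 1.68, 1.73, 1.83 and 4.78 RPM in the cKO and 0.891, 0.617 and 0.936 RPM in the WT libraries. Replicate 4 stood apart from the other cKO libraries, which lay just over the limit. The annotated span of Sec11a overlaps that of Nmb on the same strand, and reads of both could mix. Pla2g4a, the cytosolic phospholipase that frees arachidonic acid for prostaglandin synthesis, ranged from 1.81 to 3.46 RPM in cKO and from 0 to 0.925 RPM in WT. Of the enzymes for the next step of that route, Ptgs1 had no read and Ptgs2 averaged 0.797 RPM in cKO and 0.939 RPM in WT. Gabrg3, a subunit of the GABA-A receptor of the brain, ranged from 1.75 to 2.72 RPM in cKO and from 0 to 0.810 RPM in WT. Its transcript covers the 3′ part of the gene and begins 401568 bases after the nearest annotated start. Another Gabrg3 transcript on that strand had 13.8 to 17.0 RPM in cKO and 7.25 to 13.3 RPM in WT and did not pass the threshold.

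**Figure D4:**
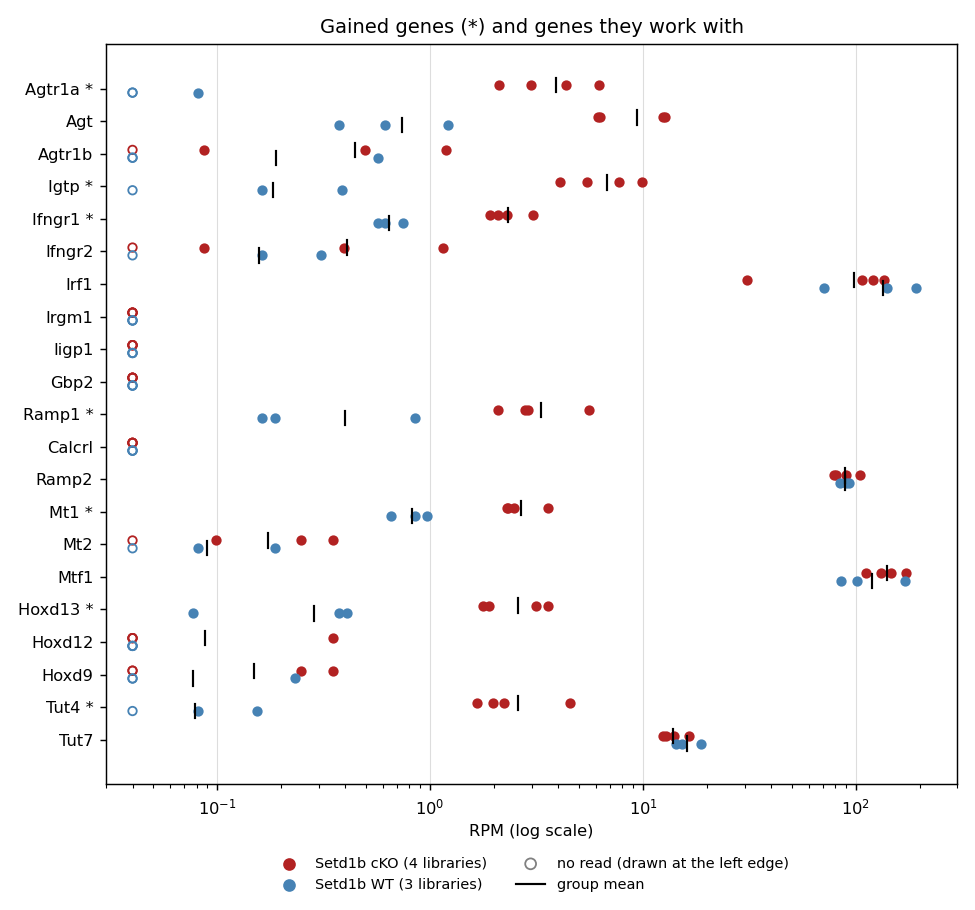
Levels in every library, in RPM on a log axis, of 7 genes of the set (marked with an asterisk) and of genes that work with them, with Setd1b cKO in red, Setd1b WT in blue, group means as black bars and open circles for no read. Agt lies higher in each cKO library than in any WT library, Irgm1, Iigp1, Gbp2 and Calcrl have no read, and Ramp2, Mtf1 and Tut7 overlap between the genotypes.

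Transporters and other membrane proteins made up 5 genes. Slc1a1 (ENSMUSG00000024935, chr19:28835049-28913960), the glutamate and cysteine transporter EAAT3 of neurons, kidney and gut, had 10.2, 9.80, 2.96 and 2.33 RPM in the cKO libraries and 0, 0.540 and 0.936 RPM in the WT libraries. Replicates 1 and 2 lay well above replicates 3 and 4, and all lay above the WT libraries. A transcript on the opposite strand overlaps 20919 bases of it, at 2.91 to 8.31 RPM in cKO and 4.40 to 6.88 RPM in WT, without a difference past the threshold. Slc47a1 (ENSMUSG00000010122, chr11:61343401-61378081), which exports organic cations in kidney and liver, had 4.26, 3.21, 2.70 and 1.98 RPM against 0.324, 0.848 and 0.936 RPM.

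Atp8b1, a lipid flippase best known from the bile canaliculus, was the lowest and the most even of the set, at 1.56 to 1.75 RPM in cKO and 0 to 0.385 RPM in WT. Tspan15, a tetraspanin that guides the protease ADAM10, ranged from 2.47 to 3.05 RPM in cKO and from 0.468 to 0.648 RPM in WT. Ank2, an adaptor that anchors membrane proteins in heart and brain, ranged from 1.63 to 3.40 RPM and from 0.243 to 0.561 RPM. Tmem30a, the partner subunit of such flippases, and Adam10 were present in both genotypes and did not pass the threshold.

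Genes of the extracellular matrix and of secreted proteins included the one with no WT read at all. Pxdn (ENSMUSG00000020674) encodes peroxidasin, which cross-links collagen IV in basement membranes. Its transcript (chr12:29938036-30017658, plus strand) had 4.55, 5.93, 9.06 and 3.73 RPM in the cKO libraries, or 254 reads, and no read in the 3 WT libraries. Against the limit of 3 reads for each WT library, the cKO mean of 5.82 ± 2.34 RPM (SD, n = 4) was at least 23.1-fold higher. The collagen IV genes were transcribed in both genotypes, Col4a1 at 4.72 and 2.94 RPM and Col4a2 at 3.66 and 3.16 RPM, without passing the threshold.

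The promoters of Pxdn and of Hoxd13, a developmental gene described with the RNA and DNA binding proteins, are shown for their CpG content, since the SETD1B complex holds a CpG-binding subunit. The window of Pxdn (chr12:29937786-29938035, plus strand) held 14 CpG dinucleotides and that of Hoxd13 (chr2:74667975-74668224, plus strand) held 31, where the median over the 5815 named genes with a RefSeq start near their transcript was 15, and 12 over those that were silent in WT and not in the set. Capitals mark each CpG.
Pxdn: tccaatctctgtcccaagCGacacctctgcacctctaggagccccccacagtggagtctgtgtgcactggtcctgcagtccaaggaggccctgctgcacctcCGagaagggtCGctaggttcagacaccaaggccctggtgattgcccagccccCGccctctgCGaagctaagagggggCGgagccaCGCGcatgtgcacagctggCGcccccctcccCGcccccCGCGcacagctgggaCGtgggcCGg
Hoxd13: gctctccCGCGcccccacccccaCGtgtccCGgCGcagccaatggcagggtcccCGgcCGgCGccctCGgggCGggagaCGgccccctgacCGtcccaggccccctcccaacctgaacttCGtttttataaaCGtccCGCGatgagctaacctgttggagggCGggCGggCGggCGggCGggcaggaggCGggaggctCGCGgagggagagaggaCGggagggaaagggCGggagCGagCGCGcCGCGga
A RefSeq start lay within 250 bases of the transcript's start for 18 of the 30 genes, whose windows held 0 to 38 CpG dinucleotides with a median of 11. A comparison of CpG content over the set is void, since too few of its genes had a window.

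Fbn2 (ENSMUSG00000024598), a fibrillin of developing elastic tissue, had 3.17, 2.47, 3.31 and 2.56 RPM in the cKO and 0.729, 0.463 and 0.748 RPM in the WT libraries. Both groups were even, and they differed 4.45-fold in the mean. Its relative Fbn1 averaged 2.04 ± 1.43 RPM (SD, n = 4) in cKO and 0.218 ± 0.378 RPM (SD, n = 3) in WT, with an adjusted p of 0.118 in limma. Lgals1 (ENSMUSG00000068220, chr15:78926725-78930465), the galactose-binding lectin galectin-1 of mesenchymal and muscle cells, had 1.78, 1.56, 4.61 and 3.26 RPM against 0.243, 0.617 and 0.748 RPM, so that cKO replicates 1 and 2 lay close to the limit.

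Crisp3 (ENSMUSG00000025433, chr17:40221777-40242288), a cysteine-rich protein secreted mainly by salivary gland, had 5.54, 2.14, 5.40 and 3.03 RPM in the cKO and 0.729, 0.617 and 0.187 RPM in the WT libraries. Krt75, a keratin of the hair follicle, ranged from 1.51 to 3.13 RPM in cKO and from 0.324 to 0.925 RPM in WT. Prb1, a proline-rich salivary protein, is the name given to a transcript of 270353 bases that runs over Prpmp5 and several predicted genes as well and shares 0.0138 of the joint span with Prb1. It ranged from 2.31 to 3.38 RPM in cKO and from 0 to 0.748 RPM in WT, and these reads cannot be told apart by gene.

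Proteins that bind RNA or DNA included the gene with the highest level. Rbms1 (ENSMUSG00000026970, chr2:60750193-60881508) encodes a protein that binds single-stranded nucleic acids and is expressed in many tissues. It had 7.22, 11.9, 13.0 and 10.4 RPM in the cKO libraries and 0.162, 0.925 and 0.748 RPM in the WT libraries. The means, 10.6 ± 2.51 RPM (SD, n = 4) and 0.612 ± 0.399 RPM (SD, n = 3), differed 17.4-fold (12.7-fold to 23.3-fold with 1 library left out), and its lowest cKO library was also the highest of any gene in the set. The transcript begins at an annotated internal start and covers 84.8% of the exon bases.

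Tut4 (ENSMUSG00000034610, chr4:108459426-108559415), a terminal uridylyl transferase, adds uridines to the ends of RNAs and acts with TUT7 on the maternal mRNA of growing oocytes. Its levels were 1.98, 2.22, 1.65 and 4.54 RPM in the cKO libraries and 0.0810, 0.154 and 0 RPM in the WT libraries. These are 105 reads against 3, a ratio of 29.8 with a 95% interval of 9.92 to 147 for counting error only. The transcript overlaps by 44 bases an opposite transcript at 149 to 256 RPM, and the part of that overlap in its level was not tested. Tut7 averaged 13.9 ± 1.84 RPM (SD, n = 4) in cKO and 16.1 ± 2.27 RPM (SD, n = 3) in WT.

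Hoxd13 (ENSMUSG00000001819), the last gene of the HoxD cluster, patterns digits and the urogenital tract in the embryo. Its transcript (chr2:74668223-74674648) had 1.78, 1.89, 3.57 and 3.15 RPM in the cKO and 0.405, 0.0771 and 0.374 RPM in the WT libraries. The next genes of the cluster with a transcript in the table, Hoxd12 and Hoxd9, averaged 0.0874 and 0.149 RPM in cKO and 0 and 0.0771 RPM in WT, levels of a few reads.

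A pair of genes is known from testis or cilia. Zswim2 (ENSMUSG00000034552, chr2:83915079-83941226), a zinc finger ubiquitin ligase of the testis, had 2.18, 4.61, 3.31 and 2.21 RPM in the cKO and 0.162, 0.385 and 0 RPM in the WT libraries. Dnal1, a light chain of axonemal dynein, ranged from 1.81 to 3.57 RPM in cKO and from 0.405 to 0.842 RPM in WT.

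Mt1, Serpinb6e and Rab20 act in metal binding, protease inhibition and vesicle traffic. Mt1, a metallothionein that binds zinc and copper and is abundant in liver, had 2.47, 2.31, 3.57 and 2.33 RPM in the cKO and 0.972, 0.848 and 0.655 RPM in the WT libraries. An opposite transcript over the same bases had 0.0824 to 1.28 RPM in cKO and no read in WT, and its part in the level of Mt1 was not tested. The sister gene Mt2 averaged 0.174 and 0.0894 RPM and the zinc sensor Mtf1 140 and 119 RPM, the latter without passing the threshold. Serpinb6e (ENSMUSG00000069248, chr13:33832345-33843408) had 1.78, 2.31, 6.44 and 1.86 RPM against 0.162, 0.154 and 0.842 RPM, and cKO replicate 3 stood apart. It is one of several closely related serpins, and reads without a clear single position may have been removed by the mapping filter. Rab20, a small GTPase of endosomes and phagosomes, ranged from 2.00 to 4.08 RPM in cKO and from 0.308 to 0.486 RPM in WT.

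The remaining 3 transcripts have little known function or an uncertain name. Ccser1, a coiled-coil serine-rich protein, had 5.25 to 7.49 RPM in the cKO and 0.231 to 0.729 RPM in the WT libraries. The transcript covers the 3′ end of the gene, begins 374751 bases after the nearest annotated start and shares 0.0428 of the joint span. Another Ccser1 transcript on that strand had 78.9 to 135 RPM in cKO and 69.7 to 88.0 RPM in WT, overlapping between the genotypes. C78283, which GENCODE does not list as protein-coding and whose transcript shares 0.492 of the joint span, ranged from 1.98 to 5.24 RPM in cKO and from 0.0771 to 0.936 RPM in WT. AC154546.2, annotated antisense to Kcnj15, ranged from 1.68 to 2.44 RPM in cKO and from 0.231 to 0.729 RPM in WT, and the transcript covers none of the annotated exon bases of that gene. A transcript on the opposite strand that overlaps it by 22656 bases was higher as well, at 4.26 to 5.68 RPM in cKO and 1.31 to 1.59 RPM in WT (limma, log2 fold change 1.29 ± 0.26 SE, adjusted p = 0.0175). Under 14 other settings its adjusted p ran from 0.0144 to 0.0768, and it missed the threshold under 4 of them, among them without WT replicate 1 and without WT replicate 2. Reads of both transcripts could mix, and the part of the opposite transcript in the level of AC154546.2 was not tested.

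Compared for exon length, the order of the genes changed. Among the 24 genes whose transcript shared at least 0.5 of the joint span, and leaving out Nmb for its overlap with Sec11a, the cKO mean per kilobase of annotated exon was highest for Lgals1 (3.11 RPM per kb), Crisp3 (2.84 RPM per kb) and Rbms1 (2.29 RPM per kb) and lowest for Ank2 (0.0952 RPM per kb).

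The 4 cKO oocytes shared the gain and differed in its size. The summed level of the 30 genes was 101, 111, 136 and 97.9 RPM in the cKO libraries and 12.5, 13.7 and 14.1 RPM in the WT libraries. Replicate 3 had the highest level for 15 genes, replicate 4 for 8, replicate 1 for 4 and replicate 2 for 3. The highest cKO library exceeded the lowest by a factor of 1.12 (Atp8b1) to 6.86 (Trim6), with a median of 2.08, and the median coefficient of variation was 34.7%. Each cKO library alone held 146 to 207 WT-silent named genes at 1.5 RPM or more, and most of these did not reach that level in all 4. No such count was made for single WT libraries, so these numbers are not read as gains.

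Over all named genes, 30 of 3176 silent in WT were gained. Of 12 families defined by gene symbol, 5 had a gene in the set, namely solute carriers (2 of 89 WT-silent genes), keratins (1 of 18), developmental transcription factors (1 of 51), neurotransmitter receptors (1 of 16) and cytokines with their receptors (1 of 44). In the whole table limma placed 5 of 185 tested solute carriers among the higher and 6 among the lower genes. Of all transcripts tested, 3.76% were higher and 1.95% lower. The cytokine family had 3 higher and 2 lower of 50 tested, the keratins 2 higher and 0 lower of 16, the transcription factors 2 higher and 1 lower of 44, and the neurotransmitter receptors 3 higher and 1 lower of 27. The counts are too small to set any family apart, and the symbol list of G-protein coupled receptors did not include Agtr1a, which is one.

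A list of 40 symbols of genes that work with members of the set (receptor partners, ligands, enzymes of the same route) was drawn up after the 30 genes were known. Tut7 stood on it also under its former symbol, Zcchc6, for which no transcript was found. Of the 40 symbols, 30 had a transcript in the table and 17 passed the filter of the test. Among those 17, Agt was higher and none was lower, beside 3.76% higher and 1.95% lower of all transcripts tested. This count says little about the list.

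Transcripts near the 30 genes were examined because they were not used by the rule. Within 50 kb of 23 of the genes lay 56 other transcripts that are reported here, and 7 genes had none. Transcripts that overlap a gene of the set were left out of this count, 8 in all, of which 3 were tested and the one opposite AC154546.2 was higher. Of the 37 that could be tested, 3 were higher in Setd1b cKO, so that 8.11% were higher beside 3.76% of all transcripts tested, and their median log2 fold change was 0.21 beside 0.12. These are small counts and no test was made on them.

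The 3 higher neighbours lay downstream of their member, Ube2f and 9230106D20Rik on its strand and Trim5 on the opposite strand. Ube2f, a NEDD8-conjugating enzyme that lies 21295 bases past Ramp1, ranged from 143 to 205 RPM in cKO and from 75.2 to 92.5 RPM in WT (log2 fold change 1.08 ± 0.21 SE, limma adjusted p = 0.0150). Trim5, a relative of Trim6 that lies 28234 bases past it, ranged from 99.6 to 184 RPM in cKO and from 27.6 to 66.2 RPM in WT (log2 fold change 1.55 ± 0.32 SE, limma adjusted p = 0.0188). The noncoding 9230106D20Rik, 34521 bases past Ifngr1, ranged from 4.08 to 6.83 RPM in cKO and from 0.0810 to 1.002 RPM in WT (log2 fold change 2.13 ± 0.32 SE, limma adjusted p = 0.00545). For each the genotypes did not overlap, as was so for 8 of the 37 neighbours tested (21.6%) and 13.2% of all transcripts tested. The calls of Ube2f and Trim5 were lost without cKO replicate 1 and without WT replicate 2, and that of Trim5 also without cKO replicate 3 and without WT replicate 1, with adjusted p values of up to 0.0829 and 0.0739 over 14 other settings. Centring the libraries on their median gene also cost Ube2f its call (log2 fold change 0.93), and a pseudocount of 5 RPM cost 9230106D20Rik its own (0.95).

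**Figure D5:**
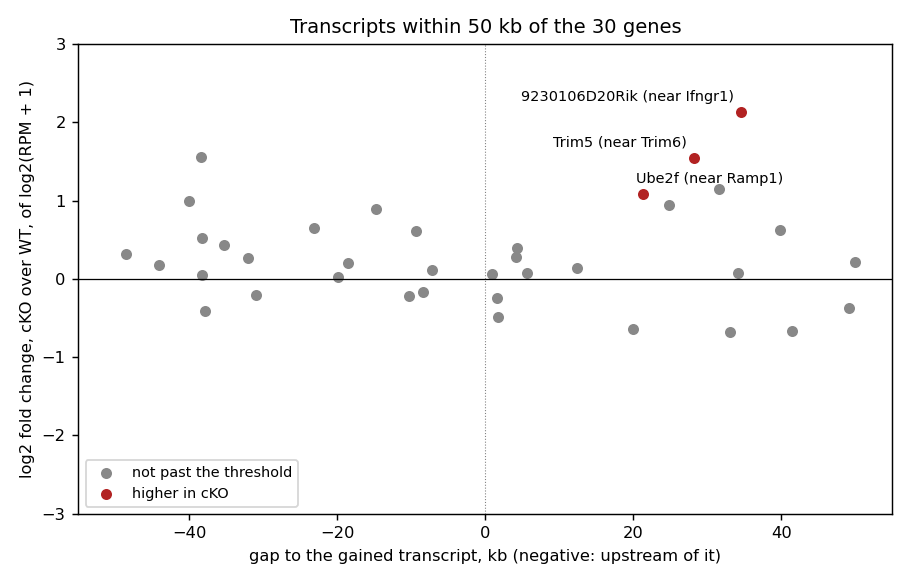
Each point is 1 of the 37 tested and reported transcripts within 50 kb of a gene of the set, placed by its gap to that gene in kb (negative upstream) and by its log2 fold change of Setd1b cKO over WT on the log2(RPM + 1) scale. Ube2f, Trim5 and 9230106D20Rik in red passed the limma threshold, and the other points in grey lie between -0.68 and 1.56.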

How the data were processed

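The authors made single-cell libraries with the SMARTer Ultra Low and NEBNext kits, used trim galore and then Hisat against GRCm38, kept hits with a MAPQ of at least 20, and quantified oocyte transcripts in SeqMonk. The study tested differential expression with a count model. Here the log values were tested on their own scale, with voom on the recovered reads as an alternative. The labels also name featureCounts 1.4.4 and bcl2fastq 1.8.4. Values were deposited by the authors as log2 RPM, with 0.9 read in place of 0 reads. Values up to 1000 reads were all whole multiples of 1 read (tolerance 0.05 read), and nearly all above that, and 0 reads were set to 0 RPM.

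The members, lists and tests were chosen with earlier results of these data known. Levels in every library are given for the 12 members of highest cKO mean that match their gene's span or exons, for the 3 of lowest WT maximum, and for those at the limits. Other members are grouped by role, with some given in full after their values were seen. Markers, partners and Setd1b were found by GENCODE M21 span, a choice made after the deposited names were found to lack Setd1b. limma 3.58.1 (R 4.3.3) compared log2(RPM + 1) of transcripts that reached 1 RPM in 3 or more libraries, without covariates and with Benjamini-Hochberg adjustment. Marker sums were compared by exact permutation over 35 splits (scipy 1.17.1), and the fit was tested on simulated data. Alternatives were other limits, pseudocounts, filters and scalings, voom, a replicate block and each library left out. For the neighbouring and partner genes these settings were added after the data had been seen. Intervals cover counting error only. Some transcripts near the members and 1 of their partner genes are not reported here and are left out of those counts.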

Additional observations from a re-analysis of the deposited data

Results flagged for a closer look

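A single cKO library stood apart from the other 3 for 3 genes, by the gap of the highest or lowest library to its nearest neighbour over the range of the group (critical value 0.829 for 4 libraries). Serpinb6e had 6.44 RPM in cKO replicate 3 and 1.78 to 2.31 RPM in the others, a gap of 0.887 of the range. Mt1 had 3.57 RPM in the same library and 2.31 to 2.47 RPM in the others, a gap of 0.867 of the range. Nmb had 4.78 RPM in cKO replicate 4 and 1.68 to 1.83 RPM in the others, a gap of 0.953 of the range. Chance would single out about 1.8 of 35 unselected values, but the limit of 1.5 RPM cuts off the low side of these genes, so that count does not apply to them directly. All other cKO libraries of these genes also met the limits.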

How the results depend on the processing

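The number of genes that met the limits depended strongly on them. With WT under 0.5 RPM it was 8 and with WT under 2 RPM 129, and with cKO at least 1 RPM it was 69 and at least 3 RPM 4. With each library centred on its median gene it was 19, of which 18 were among the 30, and with scaling to the reads within transcripts 32, of which 21 were. The limits in the opposite direction gave 6. Leaving out 1 library at a time gave 36 to 53 genes, 53 without cKO replicate 4, 48 without WT replicate 1 and 50 without WT replicate 3. By construction fewer libraries make the limits easier to meet.

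Transcripts higher in Setd1b cKO numbered 683, and 315 with a pseudocount of 5 RPM, 396 without a filter and 443 with voom. Those lower numbered 355, with 238 and 253 and 328 in the same order. Centring on the median gene turned the split of 683 higher and 355 lower to 458 higher and 531 lower. Leaving out 1 library gave 171 to 850 higher and 109 to 437 lower transcripts, the lowest counts without WT replicate 2 and the highest without cKO replicate 4. Without WT replicate 1 there were 238 and 134, without cKO replicate 1 there were 392 and 221, and without cKO replicate 3 there were 328 and 232. With the replicate number as a block there were 924 higher and 479 lower. That fit also takes out cKO replicate 4, which has no WT library of its number, and without that library alone there were 850 and 437. Deviations of same-numbered libraries correlated at 0.192, 0.295 and -0.129, so the numbers do not pair the oocytes. Scaling to the reads within transcripts moved the difference of the granulosa sum from 13.1 to 39.1 RPM (3.88 RPM without cKO replicate 3, 8.42 RPM without cKO replicate 2 and 22.9 RPM without cKO replicate 4) and that of the theca and stroma sum from 4.57 to 5.55 RPM. The fold changes of Agt, Ube2f, 9230106D20Rik, Trim5 and the transcript opposite AC154546.2 kept their sign under the other settings. So did the differences of the marker sums of other cell types, under the settings run for them. The median log2 fold change of all transcripts tested turned from 0.12 to -0.03 with centring. The cause of these shifts was not tested. At these depths a level under about 0.350 RPM cannot be told from none.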
